A study of Mus musculus with 6 samples.

Results

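*Stc2*, *Chac1*, *Nupr1*, *Vldlr*, *Cebpb* and *Atf3* are targets of the transcription factor ATF4 that are neither amino acid transporters nor enzymes of amino acid synthesis. These 6 genes, of 35602 in the count table, were chosen by name with their DMSO and MAPK13-IN-1 values in all 6 libraries already known, so their levels and changes are given below as a description without a test. CD4+ T cells from mouse spleen were activated through CD3 and CD28 and exposed to MAPK13-IN-1, an inhibitor of the kinase encoded by *Mapk13*, or to its solvent DMSO, and mRNA was sequenced in 3 libraries per group. Replicates 2 and 3 of both groups are labelled WT, and their labels give 17.1 µM inhibitor added after day 1 of culture, whereas the series text has the inhibitor present during 72 h of stimulation. The replicate 1 pair was made with another kit, a stranded mRNA kit, and its labels give neither genotype, dose nor time of addition. For replicates 2 and 3 read counts were deposited, with totals of 26874805 and 28487403 in DMSO and 33854760 and 32617702 with MAPK13-IN-1. For the replicate 1 pair normalized values of 34714 genes were deposited, read here as FPKM (fragments scaled for transcript length and depth), a unit inferred from the values, and their depth is unknown. The labels do not say whether replicates came from separate cultures or animals, so p-values measure only the spread between these libraries, which may be technical.

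ATF4 is the main effector of the integrated stress response, in which kinases that sense amino acid shortage, unfolded protein, viral RNA or heme shortage phosphorylate the translation factor eIF2 and thereby favor translation of *Atf4* mRNA. ATF4 then activates genes of amino acid uptake and synthesis, and also a set of genes for secreted factors, redox control, transcription and cell death. Activated T cells use ATF4 to meet the amino acid demand of growth.

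The labelled cell type was checked against its markers. *Cd4* counts were 7084 and 7497 in DMSO and 9477 and 9594 with MAPK13-IN-1, which is 275 and 276 CPM against 267 and 283 CPM (log2 fold change -0.00, adjusted p = 0.993, edgeR, not called). All 7 listed CD4 T cell markers were detected in all 6 libraries, and the other 6 were called lower with the inhibitor. B cell transcripts were present too, with *Pax5* at 4585 and 4580 counts in DMSO and 9332 and 9179 counts with the inhibitor. In CPM this was 178 and 168 against 263 and 271, and the replicate 1 pair went from 2.59 to 1.27 FPKM. Of 11 B cell markers, 7 were called higher and 3 lower. The shares over all 16269 genes tested were 31.5% higher and 32.3% lower. *Mapk13* itself was scarce, at 79 and 74 counts in DMSO and 21 and 51 counts with MAPK13-IN-1, a fall of the transcript (log2 fold change -1.47 ± 0.363 SE, adjusted p = 0.00490, edgeR quasi-likelihood fit, Benjamini-Hochberg over all genes tested, here and below). The size of this fall rests on single libraries, with -0.94 without MAPK13-IN-1 replicate 2 and -2.29 without MAPK13-IN-1 replicate 3. Its value in the replicate 1 pair was 0.191 FPKM in DMSO and 3.28 FPKM with the inhibitor, the opposite direction.

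*Stc2* encodes stanniocalcin 2, a secreted glycoprotein. It had 3167 and 3435 counts in DMSO replicates 2 and 3, and 301 and 303 counts in the corresponding MAPK13-IN-1 libraries. Both inhibitor libraries lay far below both DMSO libraries, and the replicates of a group were close together. Scaled by TMM, the means were 125 ± 2.47 CPM (counts scaled to the library total, SD, n = 2) in DMSO and 8.71 ± 0.326 CPM with MAPK13-IN-1, a log2 fold change of -3.84 ± 0.0790 (SE) or 14.3-fold. *Stc2* in the replicate 1 pair went from 33.6 FPKM in DMSO to 6.03 FPKM with the inhibitor, 5.57-fold lower. In a bulk sample, fewer cells of a type and less RNA per cell cannot be told apart.

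*Chac1* encodes a gamma-glutamylcyclotransferase that degrades glutathione. Its counts were 499 and 572 in DMSO and 103 and 87 with MAPK13-IN-1. The groups did not overlap. Means were 20.2 ± 1.19 CPM (SD, n = 2) and 2.73 ± 0.237 CPM, with a log2 fold change of -2.88 ± 0.139 (SE), and the replicate 1 pair gave 10.1 FPKM in DMSO and 2.39 FPKM with the inhibitor.

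*Vldlr* encodes a receptor that takes up triglyceride-rich particles and binds reelin. It had 2415 and 2400 counts in DMSO and 1142 and 1382 counts with MAPK13-IN-1, again without overlap. The inhibitor libraries differed from each other by 1.27-fold in CPM, more than the DMSO libraries at 1.06-fold. The log2 fold change was -1.32 ± 0.102 (SE), from 91.0 ± 3.82 CPM (SD, n = 2) to 36.5 ± 6.09 CPM. The replicate 1 pair gave 2.15 FPKM in DMSO and 0.359 FPKM with the inhibitor. There the 5.99-fold difference exceeded the 2.49-fold difference of the counts. With a pseudocount of 1 the log2 ratio of the pair was -1.21, smaller than the -1.32 of the counts, so that order rests on a low value. A long noncoding gene of the RefSeq table, *Gm35438*, overlaps *Vldlr* and had 11 and 9 counts in DMSO and 5 and 5 with the inhibitor.

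*Nupr1* encodes a small chromatin-associated stress protein. Its counts were 733 and 859 in DMSO and 40 and 56 with MAPK13-IN-1. This was the largest fall among the 6 genes in the count libraries, from 28.4 and 31.6 CPM to 1.13 and 1.65 CPM, and the log2 fold change was -4.43 ± 0.166 (SE) or 21.6-fold. Between the replicate 1 libraries the difference was 3.44-fold, from 35.4 FPKM in DMSO to 10.3 FPKM with the inhibitor. The overlapping noncoding gene *Gm39087* had 0, 0, 0 and 2 counts.

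*Cebpb* encodes C/EBPβ, a basic leucine zipper factor that can pair with ATF4. It had 2183 and 2289 counts in DMSO and 513 and 738 counts with MAPK13-IN-1. The DMSO libraries were nearly equal in CPM and the inhibitor libraries differed from each other by 1.51-fold, the widest replicate ratio among the 6 genes. The means were 84.4 ± 0.346 CPM (SD, n = 2) and 18.1 ± 5.18 CPM, a log2 fold change of -2.22 ± 0.144 (SE). *Cebpb* went from 32.2 to 11.6 FPKM in the replicate 1 pair. *Tmem189*, on the opposite strand, overlaps *Cebpb* in GENCODE, and its counts were 1932 and 1901 in DMSO and 3209 and 3302 with the inhibitor. Whether strand was used in counting is not given in the sources used here, so reads of these overlapping genes may be shared.

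*Atf3* encodes a stress-induced factor of the ATF and CREB family that acts mostly as a repressor. Its counts were 2846 and 2907 in DMSO and 1895 and 1699 with MAPK13-IN-1, lower in both inhibitor libraries. The means were 109 ± 2.46 CPM (SD, n = 2) and 51.8 ± 2.30 CPM, a log2 fold change of -1.07 ± 0.0667 (SE), the smallest of the 6. The replicate 1 pair went the other way, from 34.1 FPKM in DMSO to 61.3 FPKM with the inhibitor, 1.80-fold higher (log2 ratio 0.83 with a pseudocount of 1). Of the 6 genes, *Atf3* alone moved in opposite directions in the 2 sets of libraries, a difference that was not tested.

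**Figure D1:**
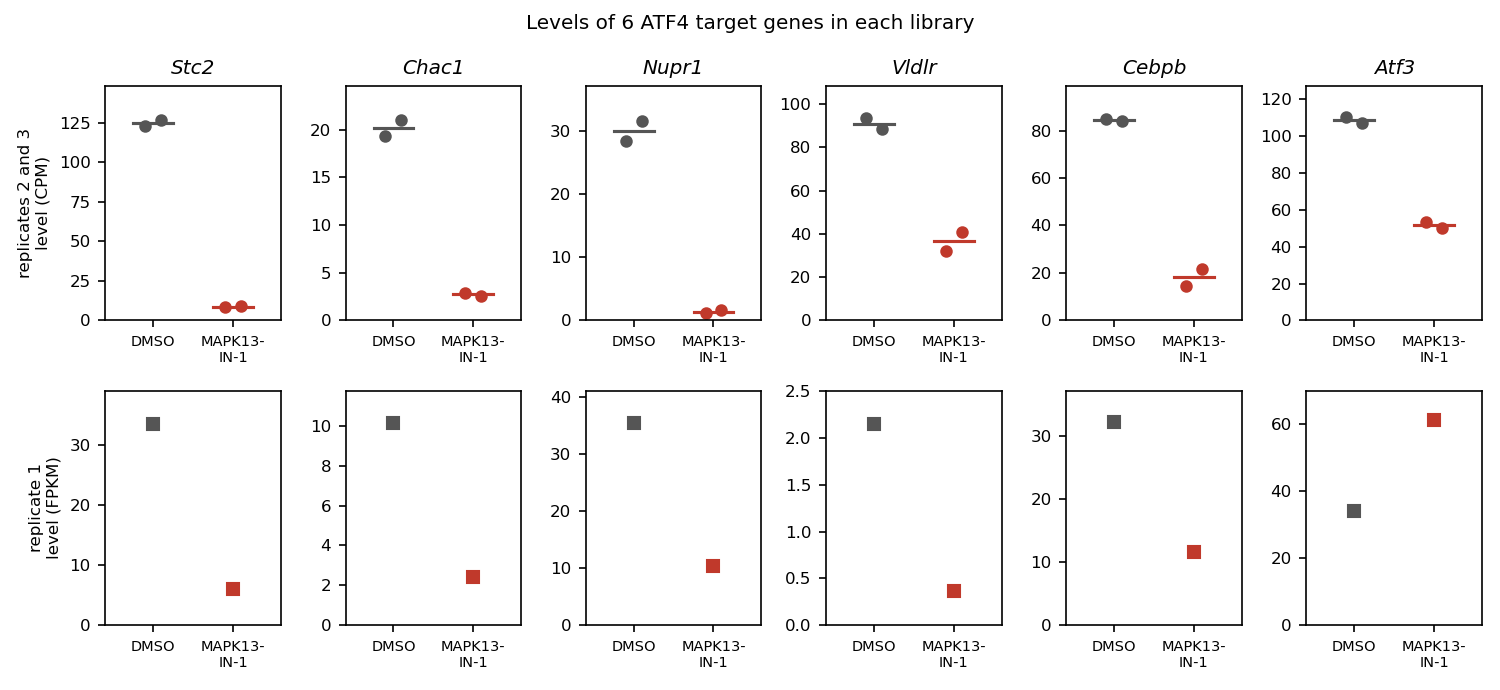
Levels of the 6 genes, with CPM of replicates 2 and 3 in the upper row (points are libraries, bars are means of n = 2) and FPKM of the replicate 1 pair in the lower row (squares, 1 library each), for DMSO in grey and MAPK13-IN-1 in red. All 6 genes were lower with the inhibitor in the count libraries, whereas *Atf3* was higher, 61.3 against 34.1 FPKM, in the replicate 1 pair.

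All 6 genes passed the filter on low counts and all were among those called lower at an adjusted p under 0.05. Of the 16269 genes tested, 63.8% were called, 32.3% lower and 31.5% higher, and in 41.4% both inhibitor libraries lay below both DMSO libraries. In the replicate 1 pair 5 of the 6 had a log2 ratio of -1 or below, as did 1.91% of the 11510 genes with at least 1 FPKM in either library. Since the genes were chosen with these values known, nothing is read from these counts.

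Levels can be compared between genes only per length, so CPM were divided by the kilobases of annotated exon, merged over all transcripts of a gene. That length includes noncoding transcripts, such as one of *Nupr1* with a retained intron (2.514 kb for the gene). It can exceed the length of the main mRNA, so the order below depends on it. In DMSO the order was *Cebpb* at 56.1 ± 0.230 CPM per kb (SD, n = 2), *Atf3* at 50.4 ± 1.14, *Stc2* at 24.1 ± 0.477, *Chac1* at 12.3 ± 0.726, *Nupr1* at 11.9 ± 0.889 and *Vldlr* at 9.03 ± 0.380 CPM per kb. *Chac1* and *Nupr1* overlapped and cannot be ordered, while the other neighbours did not overlap. With MAPK13-IN-1 the order became *Atf3* at 24.0 ± 1.07 CPM per kb, *Cebpb* at 9.61 and 14.5 in its libraries, *Vldlr* at 3.62 ± 0.605, *Stc2* at 1.68 ± 0.0630, *Chac1* at 1.67 ± 0.145 and *Nupr1* at 0.553 ± 0.148 CPM per kb. *Stc2* and *Chac1* overlapped here. *Nupr1*, below *Stc2* in the DMSO count libraries, had the highest value of the 6 in the DMSO library of replicate 1, and *Vldlr* had the lowest value in both.

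The factors of the response were examined next. *Atf4* had 14006 and 14937 counts in DMSO and 10141 and 8956 with MAPK13-IN-1, and it fell (log2 fold change -0.99 ± 0.0555 SE, adjusted p = 2.50e-07, edgeR). Replicate 1 values went from 249 to 118 FPKM. *Ddit3*, which encodes the proapoptotic factor CHOP, fell with a log2 fold change of -1.81 ± 0.0714 (SE, adjusted p = 3.14e-08, edgeR), and *Trib3*, a pseudokinase that binds ATF4, with -2.61 ± 0.0678 (SE, adjusted p = 3.43e-09, edgeR). Replicate 1 gave 117 and 47.0 FPKM for *Ddit3* and 91.8 and 14.7 FPKM for *Trib3*, lower with the inhibitor. Of 14 listed regulators of the integrated stress response, 7 were called lower and 3 higher. Of all genes tested, 32.3% were called lower and 31.5% higher. The median log2 fold change of the regulators was -0.19 against 0.01 for all genes tested. *Atf5* fell most (-2.72 ± 0.0677 SE, adjusted p = 2.99e-09, edgeR). The 3 called higher were named after their values were seen. They were the eIF2 kinase genes *Eif2ak3* (1.15) and *Eif2ak4* (0.52) and *Impact* (1.00), an inhibitor of GCN2 activation. Calls among the regulators thus went in both directions. In the replicate 1 pair 8 of the 14 were lower and 6 higher, with a median log2 ratio of -0.06.

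Of 22 other non-metabolic ATF4 targets, 21 could be tested, 13 were called lower and 5 higher, and the median log2 fold change was -0.48. *Ddit3*, *Trib3*, *Atf5*, *Cebpg* and *Ppp1r15a* are also among the listed regulators, so both lists count them. Of all genes tested, 32.3% were called lower and 31.5% higher. *Gadd45a*, a growth arrest gene, fell by 1.14 (log2 fold change -1.14 ± 0.0969 SE, adjusted p = 3.72e-06, edgeR). The 5 called higher, named after their values were seen, were *Atg12* and *Map1lc3b* of autophagy, *Hmox1* of heme degradation, *Vegfa* and *Jdp2*, with log2 fold changes of 0.49, 0.24, 0.34, 0.34 and 0.33. *Vegfa* had the opposite direction in replicate 1, at 11.8 FPKM in DMSO and 3.32 FPKM with the inhibitor. Their calls were fewer, 3, without DMSO replicate 2 and also 3 without DMSO replicate 3. *Fgf21* was not tested, at 4 and 10 counts in DMSO and 0 and 0 with MAPK13-IN-1. Calls among the non-metabolic targets outside the 6 genes thus went both ways, with more lower than higher. Among the 19 with at least 1 FPKM in replicate 1, 11 were lower and 8 were higher there, with a median log2 ratio of -0.29 against 0.08 for all genes.

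Metabolic ATF4 targets moved almost without exception one way, against 32.3% called lower and 31.5% called higher over all genes tested. Of 29, 28 were called lower and 0 higher, with a median log2 fold change of -1.42, and *Slc38a2* was the gene not called (0.00 ± 0.0711 SE, adjusted p = 0.975, edgeR). *Pycr1* of proline synthesis (-3.71), *Aldh1l2* of mitochondrial folate metabolism (-2.54), *Slc7a5* of leucine uptake (-2.19) and *Aars*, the alanyl-tRNA synthetase gene (-1.86), had the smallest p-values. All 29 were lower in the replicate 1 pair as well, with a median log2 ratio of -1.42.

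Genes of the ATF6 and IRE1 branches, the other arms of the unfolded protein response, were called lower in 14 and higher in 1 of 20 cases (median log2 fold change -0.52). The shares over all genes tested were 32.3% lower and 31.5% higher. *Xbp1* had a log2 fold change of -1.28 and the chaperone genes *Calr*, *Hyou1* and *Manf* had -1.05, -1.08 and -0.97, though *Calr* was at 250 and 334 FPKM in replicate 1. That list had 0 genes at a log2 ratio of -1 or below in the replicate 1 pair, with 9 lower, 11 higher and a median of 0.07. The number called higher was 4 with library totals or upper-quartile scaling, 2 with RLE scaling, 2 without MAPK13-IN-1 replicate 2 and 3 without MAPK13-IN-1 replicate 3.

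**Figure D2:**
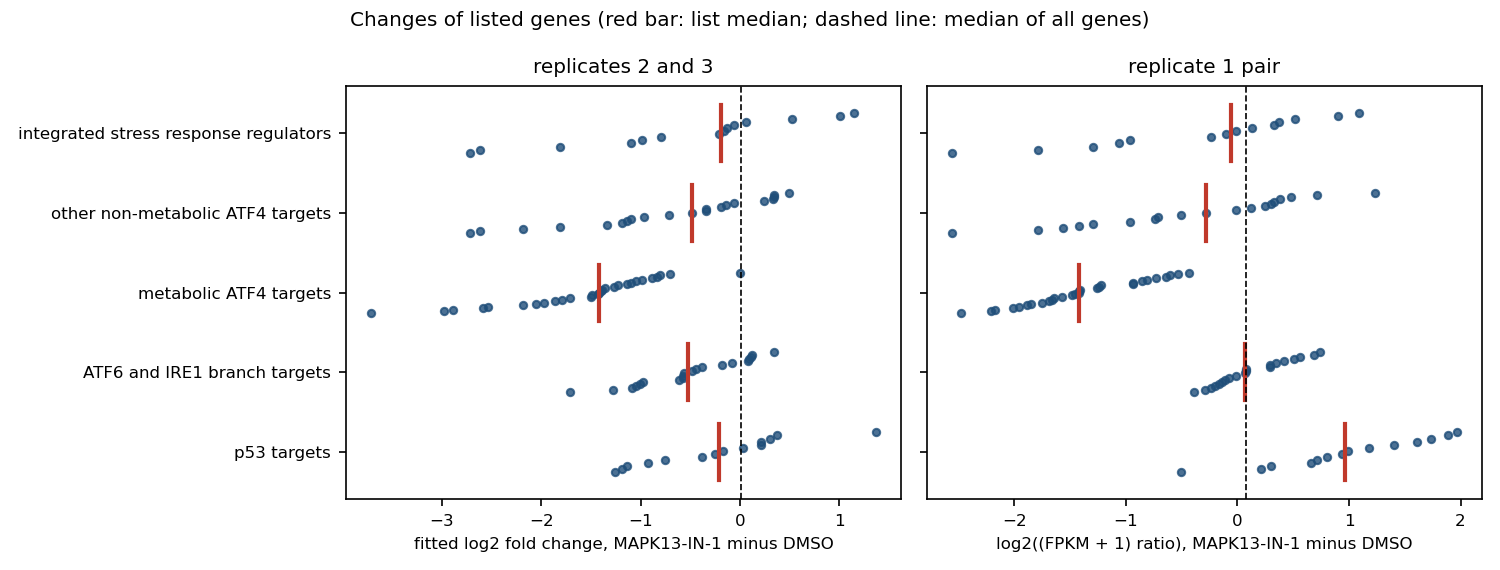
Changes of the genes in 5 lists, each point a gene, as fitted log2 fold change in replicates 2 and 3 (left) and as log2 ratio of FPKM + 1 in the replicate 1 pair (right), with list medians as red bars and the median of all genes as a dashed line. Metabolic ATF4 targets had a median of -1.42 on both scales, whereas p53 targets had -0.21 in the counts and 0.97 in the replicate 1 pair. A gene on several lists is shown in each.

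p53 targets were listed because *Atf3* is also known to respond to p53. Of 14, 7 were called lower and 4 higher in the counts, with a median log2 fold change of -0.21. Among all genes tested 32.3% were called lower and 31.5% higher. *Gadd45a* and *Bbc3* are also counted among the other non-metabolic ATF4 targets. *Sesn1*, a stress-induced antioxidant gene, rose (1.37 ± 0.0875 SE, adjusted p = 5.54e-07, edgeR), while *Bbc3* (-1.19), *Bax* (-0.75) and *Gadd45a* fell. Between the replicate 1 libraries 13 of the 14 were higher with the inhibitor, 6 of them with a log2 ratio of at least 1, and the median was 0.97. Over all 11510 genes with at least 1 FPKM in either library of this pair, 6500 were higher, 819 of them with a log2 ratio of at least 1, and the median was 0.08. *Cdkn1a* and *Mdm2*, named after their values were seen, went from 117 to 358 FPKM and from 34.5 to 117 FPKM in that pair, but in replicates 2 and 3 *Cdkn1a* was at 679 and 653 CPM in DMSO and 541 and 642 CPM with MAPK13-IN-1 and was not called (log2 fold change -0.17, adjusted p = 0.0602, edgeR), while *Mdm2* rose from 272 and 258 to 324 and 361 CPM (0.37, adjusted p = 0.000506, edgeR). *Atf3* was thus higher in the pair in which p53 targets were higher. The part of p53 targets, and of the different library kit, in the direction of *Atf3* was not tested.

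Paralogues of the 6 genes were read as well. *Stc1*, the other stanniocalcin gene, had 140 and 156 counts in DMSO and 244 and 267 with MAPK13-IN-1 (log2 fold change 0.40 ± 0.153 SE, adjusted p = 0.0406, edgeR). *Chac2*, which encodes the other glutathione-degrading enzyme of the family, had 105 and 116 against 224 and 175 counts (0.46 ± 0.176 SE, adjusted p = 0.0400, edgeR). Both rose, with calls that single libraries decide. The call of *Stc1* was lost without DMSO replicate 2 (adjusted p = 0.199), DMSO replicate 3 (0.114) or MAPK13-IN-1 replicate 3 (0.131) and with DESeq2 (0.200). That of *Chac2* was lost without DMSO replicate 2 (adjusted p = 0.160), DMSO replicate 3 (0.104) or MAPK13-IN-1 replicate 2 (0.189) and with DESeq2 (0.201). In replicate 1 *Stc1* was near 0, at 0.00904 FPKM in DMSO and 0.0651 FPKM with the inhibitor, and *Chac2* was at 2.25 and 4.67 FPKM. *Nupr1l* had 5 to 13 counts per library and was not called.

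*Lrp8*, a receptor related to *Vldlr* that also binds reelin, had a log2 fold change of 0.15 ± 0.0993 (SE, adjusted p = 0.197, edgeR), which was called without MAPK13-IN-1 replicate 2 (0.23, adjusted p = 0.0256) and with library totals (0.28, adjusted p = 0.0287). *Mylip*, for a ligase that degrades VLDLR, rose (1.35 ± 0.139 SE, adjusted p = 1.38e-05, edgeR), as did the related receptor gene *Lrp6* (0.65) and *Apoe* (0.53), which encodes a ligand of VLDLR and was at 6.21 and 4.25 FPKM in replicate 1, lower with the inhibitor.

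*Cebpa* and *Cebpd* were near the limit of detection, at 10 to 23 and 11 to 18 counts per library, and neither was called. *Cebpg*, a partner of ATF4, fell by 1.09 (log2 fold change -1.09 ± 0.0677 SE, adjusted p = 4.53e-07, edgeR). Of 10 ATF and CREB relatives of *Atf3*, 4 were called lower and 3 higher, among them *Atf6b* (-2.04) and *Creb1* (0.77). Over all genes tested these shares were 32.3% and 31.5%. Some of these relatives are counted in lists above, *Atf4*, *Atf5*, *Jdp2* and *Atf6*. In the replicate 1 libraries *Atf6b* was at 19.1 FPKM in DMSO and 18.6 FPKM with the inhibitor, and *Creb1* at 12.2 and 11.0 FPKM, the opposite direction. Of 8 tested genes of the gamma-glutamyl cycle, in which *Chac1* acts, 4 were called higher and 1 lower, but 2 higher without MAPK13-IN-1 replicate 2 and 2 lower without MAPK13-IN-1 replicate 3. *Oplah*, for the oxoprolinase that follows the cyclotransferase step, rose (1.68 ± 0.193 SE, adjusted p = 3.03e-05, edgeR), and *Gclc* (0.33) and *Gclm* (0.41) of glutathione synthesis were called higher, while *Ggt7* (-0.94) was called lower. The call of *Gclm* was lost without MAPK13-IN-1 replicate 2 (0.17, adjusted p = 0.137), where *Gclc* had 0.21. These 3 genes went the other way in replicate 1, *Gclc* from 19.9 to 14.5 FPKM, *Gclm* from 16.3 to 9.25 FPKM and *Ggt7* from 6.32 to 9.97 FPKM.

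**Figure D3:**
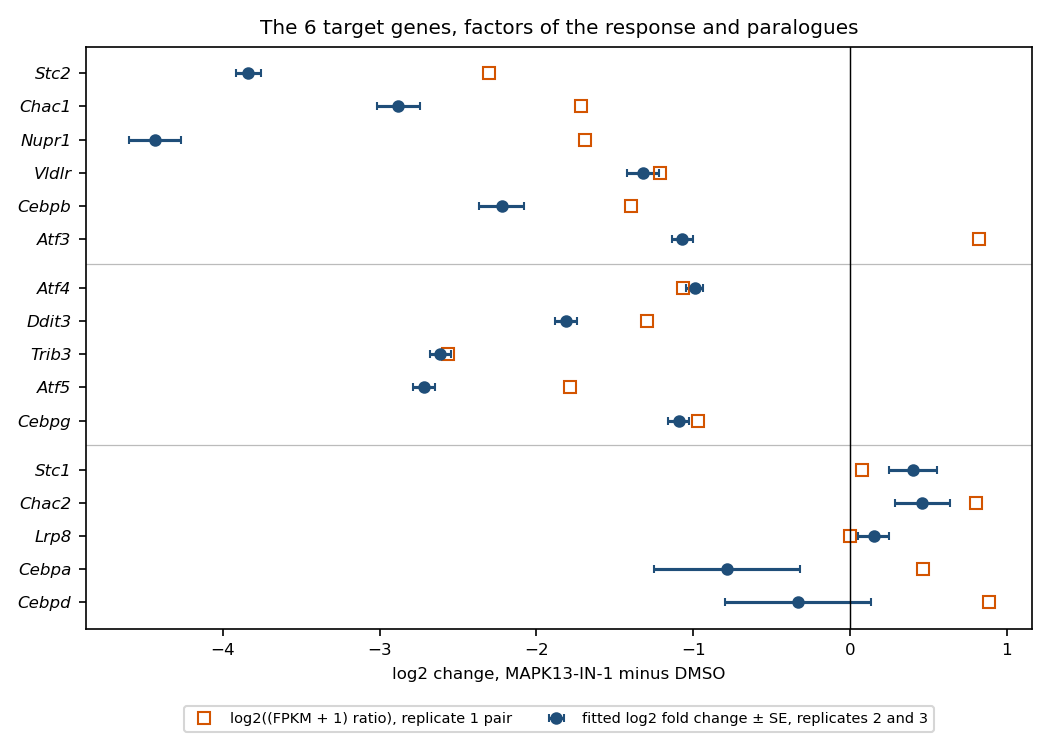
Log2 changes, MAPK13-IN-1 minus DMSO, of the 6 genes, of 5 factors of the response and of 5 paralogues, as fitted log2 fold change ± SE in replicates 2 and 3 (n = 2 per group, filled circles) and as log2 ratio of FPKM + 1 in the replicate 1 pair (open squares). *Stc2* had -3.84 and its paralogue *Stc1* 0.40, *Chac1* had -2.88 and *Chac2* 0.46, and *Atf3* had -1.07 in the counts and 0.83 in the pair. The calls of *Stc1* and *Chac2* were lost in several refits.

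Genes with the profile most like each of the 6 were found by the root mean square difference of centred log2 CPM over the 4 count libraries, among 13378 genes. With 2 libraries per group, such a profile is mostly the size of the change. Nearest to *Stc2* were *Anxa3* (0.0359) and *Penk* (0.0685), to *Chac1* *H1f0* (0.0518) and *Egr1* (0.0713), and to *Nupr1* *Il23a* (0.0473) and *Fam71b* (0.0784). Nearest to *Vldlr* were *Pimreg* (0.0128) and *Bckdk* (0.0299), to *Cebpb* *Hmx3* (0.0308) and *Ffar2* (0.0391), and to *Atf3* *Bloc1s1* (0.00707) and *Cebpg* (0.0158). The replicate 1 pair, not used for this measure, separated some of these genes. *Penk* went from 43.2 to 282 FPKM there while *Stc2* was lower, and *Cebpg* went from 23.8 to 11.7 FPKM while *Atf3* was higher.

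Markers of other cells were read in full, because *Cebpb* and *Atf3* are also expressed in myeloid cells. Of 13 macrophage and monocyte markers 9 were tested and 8 were called higher, against 31.5% of all genes tested. Their summed level was 77.3 and 70.4 CPM in DMSO and 113 and 112 CPM with MAPK13-IN-1. *Mpeg1* was the most abundant of them (1636, 1583, 2467 and 2570 counts). *Cd163* was at 0 to 2 counts and *C1qc* at 0 in DMSO and 14 and 8 with the inhibitor. These markers were higher in the libraries in which *Cebpb* was lower. Neutrophil markers were near 0, with 0.776 and 0.956 against 1.04 and 1.27 CPM in sum over 10 genes, and *S100a9* at 0 in the 4 count libraries. *Mpo* was the most abundant of them with the inhibitor (2, 2, 17 and 16 counts), but *Ltf* (8, 4, 7 and 9 counts) and *Cxcr2* (6, 14, 0 and 3 counts), named after their values were seen, were above it in DMSO, and *Cxcr2* was lower with the inhibitor. Dendritic cell markers summed to 19.2 and 19.5 CPM in DMSO and 59.0 and 49.2 CPM with the inhibitor over 7 genes, led by *Zbtb46*, with *Cd209a* at 0.

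Lymphoid markers moved too. The 7 CD4 T cell markers summed to 1664 and 1695 CPM in DMSO and 903 and 1025 CPM with the inhibitor, 6 of them called lower. *Cd5* was the most abundant in DMSO (10978 and 11945 counts, then 5466 and 6780), and *Cd4*, the marker not called, with the inhibitor. B cell markers summed to 1163 and 1143 against 1317 and 1341 CPM over 11 genes, *Pax5* the most abundant with the inhibitor but not in DMSO, 7 called higher and 3 lower. The shares over all genes tested were 31.5% higher and 32.3% lower. *Cd8a* and *Cd8b1* together gave 11.7 and 10.9 against 5.49 and 7.85 CPM, and 5 NK cell markers gave 3.34 and 3.97 against 5.02 and 4.46 CPM, with *Klra8* at 0. Of these *Klrk1* (49, 46, 121 and 98 counts) was above *Eomes* (37, 60, 42 and 51 counts, named after its values were seen) in 3 of the 4 count libraries. Replicate 1 CD4 T cell markers summed to 1024 FPKM in DMSO and 934 FPKM with the inhibitor, and the B cell markers to 54.1 and 37.4 FPKM. CD8 T cell markers were the other way round from the counts there, at 3.49 and 8.39 FPKM, as B cell markers were, and NK cell markers gave 1.03 and 5.34 FPKM, mostly *Eomes* (0.554 and 4.23 FPKM).

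Erythroid markers summed to 7.83 and 7.54 CPM in DMSO and 90.0 and 64.6 CPM with the inhibitor over 8 genes, with 6 of 7 tested called higher. The shares over all genes tested were 31.5% higher and 32.3% lower. *Hbb-bs* was the most abundant erythroid marker with the inhibitor (51, 47, 1048 and 744 counts). Stromal and endothelial markers summed to 43.8 and 42.4 against 80.3 and 75.9 CPM over 9 genes. The sum came mostly from *Pecam1*, with *Col3a1* and *Pdgfra* at 0. Of the 5 tested, 1 was called higher, *Pecam1*, and 1 lower. The latter, *Pdgfrb*, named after its values were seen, had 51, 77, 41 and 58 counts (log2 fold change -0.75, adjusted p = 0.0456, edgeR). The 5 platelet markers summed to 10.0 and 9.08 against 17.5 and 18.4 CPM, led by *Itga2b*, with *Ppbp* at 0. Replicate 1 sums, DMSO first, were 3.36 and 14.6 FPKM for dendritic cell, 0.931 and 1.94 for erythroid, 0.969 and 2.17 for platelet, 0.786 and 0.485 for neutrophil and 7.95 and 6.56 FPKM for stromal and endothelial markers, the last 2 lower with the inhibitor, unlike in the counts, while macrophage and monocyte markers were at 4.69 FPKM in DMSO and higher with the inhibitor. The series gives the splenic cells as sorted, and the methods of the study name a CD4 T cell isolation kit. The part of these cell types in the levels of the 6 genes was not tested.

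The promoters of the 6 genes were searched for letters that ATF4 and related factors are known to bind. RefSeq windows (GRCm38.p6) run from 250 bases before to 50 after the start of transcription and were found for all 6. The core of the C/EBP-ATF response element, TGATGNAA on either strand, was found in windows of *Chac1*, *Atf3*, *Nupr1* and *Vldlr*, and in 3.97% of all 32851 windows. All 4 matches read TGATGCAA on the strand opposite to the gene, and those letters, chosen after the matches were seen, are in 0.895% of windows. The match of *Chac1* begins 193 bases before the start (chr2:119351049-119351056) and that of *Atf3* 110 bases before it (chr1:191183436-191183443), both outside annotated exons of these genes. That of *Nupr1* also begins 110 bases before the RefSeq start (chr7:126625573-126625580), inside an exon of the GENCODE model, and that of *Vldlr* 200 bases before the start of its inner window (chr19:27216820-27216827), inside an exon of a noncoding *Vldlr* transcript, while its outer window held none. The stretches are shown because the same 8 letters recur in them, in capitals as read on the gene's strand, 5′ to 3′, cut to 30 bases where an exon is annotated: *Chac1* at chr2:119350992-119351228 (+), *Atf3* at chr1:191183341-191183583 (-), *Nupr1* at chr7:126625562-126625591 (-) and *Vldlr* at chr19:27216809-27216838 (+).
Chac1: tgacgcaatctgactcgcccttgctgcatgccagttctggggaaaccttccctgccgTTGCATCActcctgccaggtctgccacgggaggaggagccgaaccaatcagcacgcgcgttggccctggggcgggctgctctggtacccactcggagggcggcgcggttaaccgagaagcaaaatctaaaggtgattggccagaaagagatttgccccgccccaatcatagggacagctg
Atf3: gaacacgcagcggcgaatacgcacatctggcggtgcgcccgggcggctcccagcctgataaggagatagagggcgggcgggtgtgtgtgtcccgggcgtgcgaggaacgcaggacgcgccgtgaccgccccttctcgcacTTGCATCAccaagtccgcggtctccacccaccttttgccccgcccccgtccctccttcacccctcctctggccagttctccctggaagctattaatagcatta
Nupr1: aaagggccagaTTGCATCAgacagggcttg
Vldlr: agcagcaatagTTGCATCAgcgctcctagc

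*Stc2* (chr11:31370012-31370311) and *Cebpb* (chr2:167688665-167688964) had no such match in their windows, which says only that these letters are not there. The window of *Cebpb* was 80.7% G and C, that of *Stc2* 64.7%. The CRE TGACGTCA (1.79% of all windows), the AP-1 element TGACTCA (5.20%) and the Tcf/Lef core CTTTGAT (3.73%) were in the windows of 0 of the 6 genes. Counted by gene, TGATGNAA was in 4 of 18 other non-metabolic ATF4 targets, in 8 of 21 metabolic targets, in 0 of 17 ATF6 and IRE1 targets and in 0 of 12 p53 targets with a window, and in 4.51% of all 27025 genes. A match is a description and does not show that a factor binds there.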

How the data were processed

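For replicates 2 and 3 the authors deposited whole-number counts per gene; the labels name fastp 0.21.0, HISAT2 2.1.0, StringTie 2.1.5 and build mm10, and how StringTie output became counts is not given in the sources used here. The replicate 1 values deposited by the authors are read as FPKM, a unit inferred from the numbers, with FastQC and HISAT2 named. Counts were fitted in R 4.3.3 with edgeR 4.0.16 (filterByExpr, minimum count 10 and minimum total 15, TMM scaling, quasi-likelihood test without covariates, Benjamini-Hochberg adjustment over 16269 genes, threshold 0.05). The fit was tested on simulated counts. The replicate 1 pair entered no test, and its log2 ratios use a pseudocount of 1, which understates changes of low values. Replicates differed beyond sampling noise (mean chi-square per gene 3.07 in DMSO and 9.80 with MAPK13-IN-1). Summed CPM and CPM per kb use TMM-scaled totals and exon lengths of GENCODE vM21 (GRCm38), which may differ from the annotation used for counting. The 6 genes and the gene lists were chosen with earlier results of these data known. Genes named individually are the 6, up to 4 genes with the smallest p of each pathway, paralogue or partner list, *Atf4*, *Ddit3*, *Trib3*, *Mapk13*, the direct paralogues, the 2 genes nearest to each of the 6, and the most abundant gene of each marker list; others are values behind a check or marked as named after their values were seen; a few genes covered by this rule are left out. Alternatives were RLE, upper-quartile and no composition scaling, no filter, at least 10 counts in every library, a replicate block, DESeq2 1.42.0, each library left out, a pseudocount of 0.1, and list medians limited to genes reaching 1 FPKM in each library.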

Additional observations from a re-analysis of the deposited data

Results flagged for a closer look

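*Atf3* differed in direction between the library sets. Its log2 ratio was 0.83 in the replicate 1 pair (34.1 FPKM in DMSO and 61.3 FPKM with MAPK13-IN-1), while both inhibitor libraries of replicates 2 and 3 lay below both DMSO libraries. The difference was not tested, since the replicate 1 pair has 1 library per group, another kit and another unit.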

How the results depend on the processing

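Between 8278 (DESeq2) and 10943 genes (without MAPK13-IN-1 replicate 3) were called across the alternatives, against 10374. The balance of calls moved with the scaling, from 5252 lower and 5122 higher to 4302 and 6176 with library totals and 4633 and 5823 with upper-quartile scaling. With the replicate block, 10645 genes were called. Deviations of same-numbered libraries from their group means correlated at -0.0064, so no pairing was seen. With n = 2 per group this cannot show whether they shared a culture or animal. Library totals moved the median log2 fold change of all genes from 0.01 to 0.14. The fold changes of the 6 genes stayed below 0 in all 66 refits, from -4.74 to -4.18 for *Nupr1*, from -2.55 to -1.95 for *Cebpb* and from -1.11 to -0.94 for *Atf3*. Of the 66, 4 moved by more than the replicate spread, those of *Stc2* and *Atf3* with upper-quartile scaling and library totals. *Cebpb* moved further than *Atf3* without passing its wider spread, so this count does not rank the genes by stability. With a pseudocount of 0.1 the log2 ratio of *Vldlr* in the replicate 1 pair was -2.29 in place of -1.21, and that of *Atf3* 0.84. ATF6 and IRE1 targets called higher numbered 1, but 2 with RLE scaling, 4 with upper-quartile scaling, 4 with library totals and 2 with at least 10 counts in every library; the cause was not tested. With each library left out they numbered 1 to 3, and the other non-metabolic targets called higher 3 to 5. The other counts of the 5 pathway lists stayed within 1.5 times; relatives of *Stc2*, *Chac1* and *Nupr1* called higher numbered 2, but 0 with DESeq2 or without either DMSO library and 1 without either inhibitor library, and for the gamma-glutamyl cycle the 4 higher became 2 without MAPK13-IN-1 replicate 2 and the 1 lower became 2 without MAPK13-IN-1 replicate 3. Depth limits genes of about 20 counts or fewer, such as *Cebpa* and *Cebpd*.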
